A study of Homo sapiens with 33 samples.

Results

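The core pluripotency factors taken here are 9 genes chosen by name: POU5F1, NANOG, SOX2, LIN28A, LIN28B, DPPA4, PRDM14, SALL4 and ZFP42. They are 9 of the 35805 genes in the RNA-seq table and carry 31 of the 153958 start-site windows in the ChIP-seq table, and all 9 had enough RNA to be tested. Cells were H9 human ESCs, an established embryonic stem cell line, grown on mouse embryonic fibroblast feeders and flow-sorted for SSEA4, a surface glycolipid of undifferentiated human ESCs. The genotypes were EZH2+/+, the parental line, EZH2-/+, a clone in which CRISPR/Cas9 had disrupted 1 EZH2 allele, EZH2-/-, a clone with both alleles disrupted and an uninduced doxycycline (DOX)-inducible EZH2 transgene, and EZH2-/-+EZH2, the same line with DOX inducing that transgene. The EZH2-/- line was derived from EZH2-/+ cells that were retargeted in the presence of DOX, so EZH2-/+ and both EZH2-/- groups share a clonal history that EZH2+/+ cells lack. EZH2 genotype and that history cannot be told apart in any comparison with EZH2+/+ cells. RNA-seq had 3 libraries for each genotype. ChIP-seq for H3K27me3, H3K4me3, H3K27ac, H3K4me1 and input gave 1 averaged column per genotype and so no replicate error, and EZH2 ChIP-seq was made in EZH2+/+ cells alone.

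The members form the transcriptional and post-transcriptional core of the pluripotent state. OCT4 (encoded by POU5F1), SOX2 and NANOG are DNA-binding factors that occupy many regulatory regions together, their own included, and OCT4 and SOX2 can bind side by side on a joined octamer and Sox motif. PRDM14, SALL4, DPPA4 and ZFP42 (REX1) are nuclear factors found in pluripotent or germ cells, and LIN28A and LIN28B are RNA-binding proteins that block maturation of the let-7 microRNA. EZH2 is the catalytic subunit of PRC2, which places H3K27me3, a mark of repressed genes. H3K4me3 and H3K27ac mark active promoters, and H3K4me1 is found at enhancers and around promoters.

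Promoter sequence is shown first for the member whose RNA rose most and for the member whose RNA fell in EZH2-/- cells. RefSeq promoters on GRCh38.p14 (250 bases before to 50 after the start site) matched 5 of the 9 members with 6 entries: NANOG, SOX2, DPPA4, ZFP42 and LIN28B, which has 2 entries. POU5F1, LIN28A, PRDM14 and SALL4 are named only. The NANOG promoter lies at chr12:7789152-7789451 on the plus strand and the SOX2 promoter at chr3:181711675-181711974 on the plus strand. Capitals mark the octamer core (ATGCAAA) and the Sox core (CATTGT), searched on both strands.
NANOG: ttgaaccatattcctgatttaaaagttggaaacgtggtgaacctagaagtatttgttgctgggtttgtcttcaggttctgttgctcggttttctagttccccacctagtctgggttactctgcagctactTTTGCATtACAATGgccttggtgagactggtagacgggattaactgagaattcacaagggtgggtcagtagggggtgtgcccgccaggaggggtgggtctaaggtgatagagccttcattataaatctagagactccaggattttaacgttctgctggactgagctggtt
SOX2: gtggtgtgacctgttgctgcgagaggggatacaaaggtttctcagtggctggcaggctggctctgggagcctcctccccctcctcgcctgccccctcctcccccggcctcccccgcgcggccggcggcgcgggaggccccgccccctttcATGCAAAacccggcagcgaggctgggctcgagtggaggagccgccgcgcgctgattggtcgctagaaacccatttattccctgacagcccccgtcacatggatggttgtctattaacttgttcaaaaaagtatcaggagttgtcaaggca
NANOG carried both motifs on the opposite strand, the octamer core from base 131 to 137 and the Sox core from base 139 to 144, a single base apart. SOX2 carried the octamer core alone, on the same strand, from base 151 to 157. Of 35116 RefSeq promoters of the same length, 4.46% hold the octamer core, 10.8% the Sox core and 0.729% both. The first LIN28B entry (chr6:104940715-104941014, plus strand) held the Sox core, and the DPPA4, ZFP42 and second LIN28B entries held neither. The GC box (GGGCGG) was in the entries of SOX2, DPPA4 and ZFP42 and in the first LIN28B entry but not in that of NANOG, against 45.0% of all promoters. The members' promoters ranged widely in CpG, from an observed to expected ratio of 0.323 at NANOG and 0.355 at DPPA4 to 0.667 at SOX2, 0.697 at ZFP42 and 0.983 at the first LIN28B entry (median of all promoters, 0.579). These matches describe letters in a window and show no binding.

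The RNA libraries held 16587860 to 36589089 reads on genes, and levels are given as RPM, the reads on a gene scaled to a fixed library size. EZH2 itself was at 63.8 ± 4.56 RPM (mean ± SD, n = 3 in every group) in parental EZH2+/+ cells, 51.2 ± 4.95 in EZH2-/+ cells, 9.95 ± 1.44 in EZH2-/- cells and 304.0 ± 70.6 with the transgene. Markers of human ESCs were present in every library, with a summed level of 1700 to 2740 RPM over 10 genes. Most of that sum was PODXL and DNMT3B (means of 1212 and 439 of 2052 RPM in EZH2+/+ cells), and LEFTY1 was as low as 3.90 RPM in EZH2-/+ cells. The study calls the libraries of a genotype biological replicates, the labels do not say whether their cultures were separate, and p-values measure the spread between these libraries. Libraries with the same number deviated together across genotypes, and a fit that takes the number as a block is given where it changes a call. EZH2-/+ libraries stood apart from each other: summed definitive endoderm markers were at 91.4, 498.0 and 19.6 RPM in EZH2-/+ libraries 1, 2 and 3. In library 2 the marker CER1 made up 358 RPM of that sum. In bulk RNA, fewer cells that express a gene and less RNA per cell cannot be told apart.

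On GRCh38 the members lie at chr6:31164337-31180731 (POU5F1), chr12:7787794-7799141 (NANOG), chr3:181711924-181714436 (SOX2), chr1:26410778-26429722 (LIN28A), chr6:104957048-105083332 (LIN28B), chr3:109326141-109337572 (DPPA4), chr8:70051651-70071693 (PRDM14), chr20:51784042-51802520 (SALL4) and chr4:187995771-188005050 (ZFP42). Per kilobase of annotated exon, LIN28A and POU5F1 were the most abundant members in EZH2+/+ ESCs, at 247 and 237 RPM per kb. SOX2 followed at 89.1 RPM per kb and DPPA4 at 44.0, while SALL4, PRDM14 and ZFP42 were at 20.6, 18.1 and 15.8. LIN28B at 9.23 and NANOG at 4.12 RPM per kb were lowest. In EZH2-/- ESCs POU5F1 stood first at 451 RPM per kb, followed by LIN28A at 223, DPPA4 at 68.9, PRDM14 at 48.7 and SOX2 at 43.5. LIN28B became the lowest at 8.05 RPM per kb, with NANOG above it at 16.3.

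**Figure D1:**
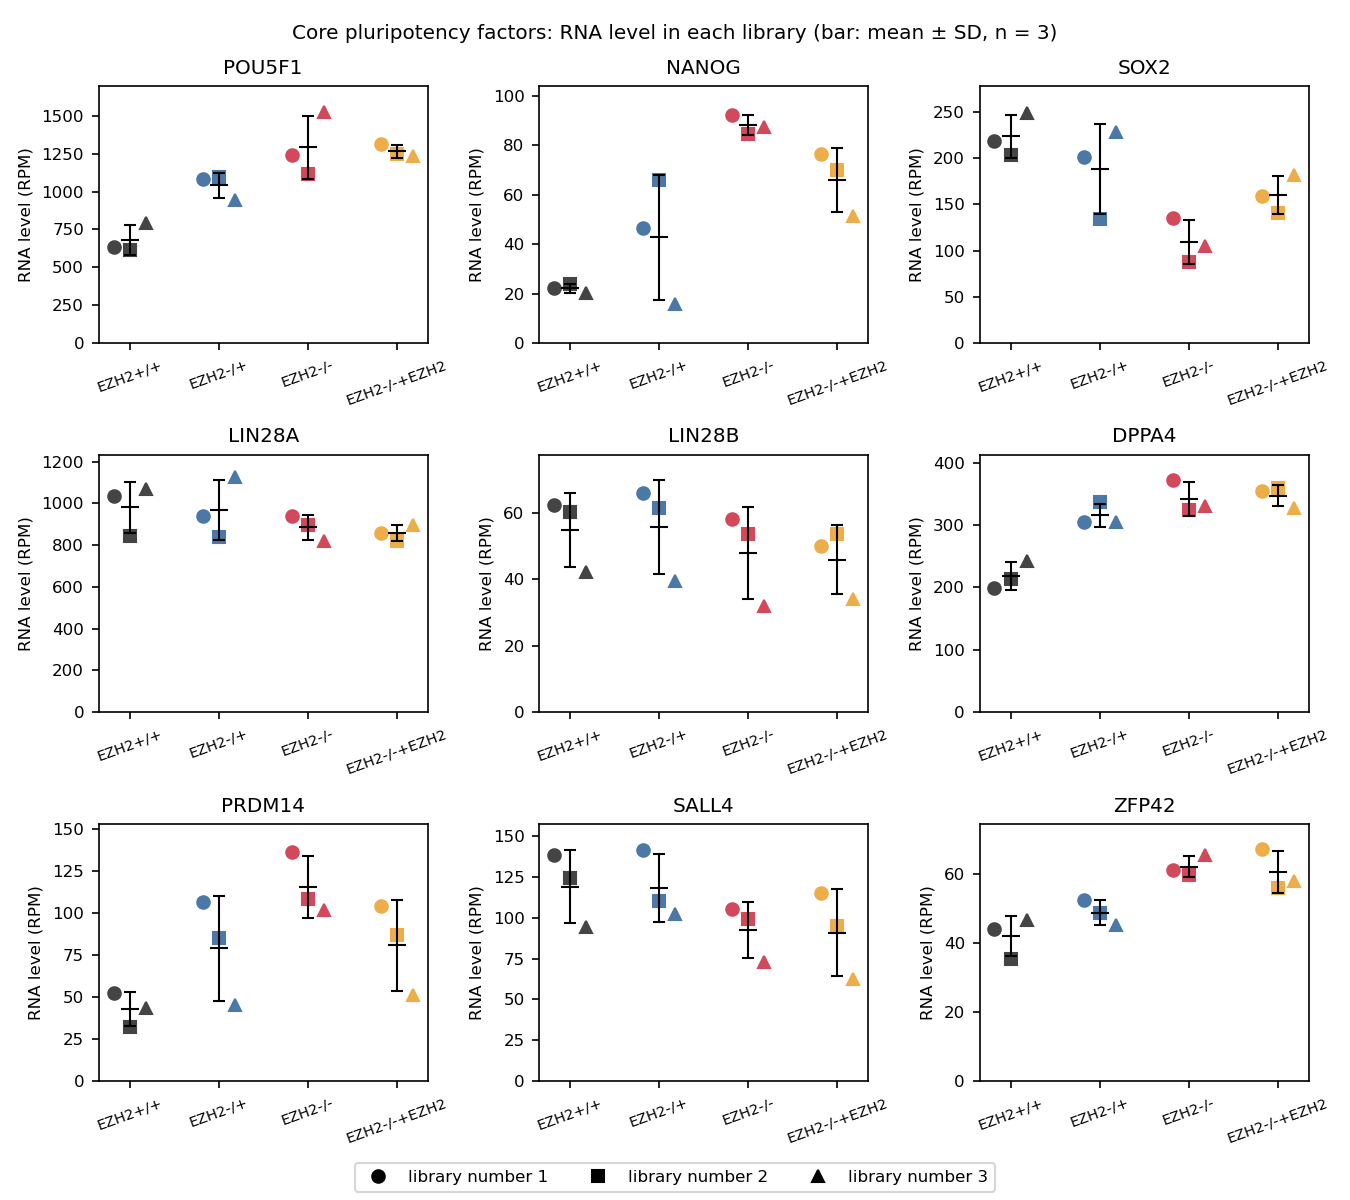
RNA level in RPM (vertical axis, linear, from 0) of each factor in each of the 12 libraries, by genotype. The symbol gives the library number and the bar the mean ± SD of 3 libraries. EZH2+/+ libraries lie below all EZH2-/- libraries for POU5F1, NANOG, DPPA4, PRDM14 and ZFP42 and above them for SOX2, whereas LIN28A, LIN28B and SALL4 overlap.

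Relative to EZH2+/+ ESCs, EZH2-/- ESCs had more RNA of POU5F1, NANOG, DPPA4, PRDM14 and ZFP42 and less of SOX2. LIN28A, LIN28B and SALL4 did not pass the test. So 5 of 9 members rose, where 12.6% of the 20608 genes tested did, and 1 of 9 fell, where 18.8% did (limma on log2(RPM + 0.1), Benjamini-Hochberg adjusted p under 0.05). All EZH2-/- libraries lay above all EZH2+/+ libraries at those 5 members, as at 20.6% of genes tested, and below them at SOX2, as at 29.2%. The median change of the members was 0.57 on the log2 scale, beside -0.13 over all genes tested. Since the median gene lies below 0, a median-ratio rescaling of the libraries was also fitted. It turned the split of all calls from 2593 higher and 3870 lower to 3373 higher and 2823 lower, and still gave 5 members higher and 1 lower.

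NANOG, the homeodomain factor, rose most. It was at 22.4, 24.0 and 20.3 RPM in the EZH2+/+ libraries and at 92.4, 84.5 and 87.5 RPM in the EZH2-/- libraries. All EZH2-/- libraries were far above all EZH2+/+ libraries, and the log2 change was 1.98 ± 0.38 (SE, limma, adjusted p = 0.00215). PRDM14, a PR-domain zinc finger protein that helps maintain POU5F1 expression in human ESCs, was at 52.3, 32.4 and 43.7 RPM in EZH2+/+ and at 136, 108 and 102 RPM in EZH2-/- libraries. The groups did not overlap, and the log2 change was 1.44 ± 0.32 (SE, limma, adjusted p = 0.00482).

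POU5F1, the POU-domain factor OCT4, was already abundant in EZH2+/+ ESCs, at 632, 617 and 792 RPM, and reached 1238, 1119 and 1524.5 RPM in EZH2-/- ESCs. The lowest EZH2-/- library was above the highest EZH2+/+ library, and the log2 change was 0.92 ± 0.16 (SE, limma, adjusted p = 0.00103). POU5F1 shares sequence with its retrocopy POU5F1B on chromosome 8, which went from 15.5 to 27.8 RPM between the same groups, and reads could have been split between the copies. TCF19 overlaps POU5F1 on the other strand at 14.0 to 23.0 RPM over the 12 libraries, a small part of the reads on POU5F1.

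DPPA4, a SAP-domain chromatin protein, was at 200, 213 and 242 RPM in EZH2+/+ and at 373, 323 and 330 RPM in EZH2-/- libraries (log2 change 0.65 ± 0.12, SE, limma, adjusted p = 0.00207). ZFP42, a zinc finger protein related to YY1, was at 44.0, 35.4 and 46.5 RPM in EZH2+/+ and at 61.0, 59.6 and 65.4 RPM in EZH2-/- libraries (0.57 ± 0.14, SE, limma, adjusted p = 0.0078). Neither gene's groups overlapped, although both changes were smaller than that of POU5F1 or NANOG.

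SOX2, the HMG-box partner of OCT4, went the other way. It was at 219, 203 and 249 RPM in EZH2+/+ and at 135, 88.0 and 105 RPM in EZH2-/- libraries, with no overlap. The log2 change was -1.05 ± 0.21 (SE, limma, adjusted p = 0.00263). SOX2 lies inside SOX2-OT, a long noncoding transcript on the same strand, whose mean was 9.58 RPM in EZH2+/+ ESCs but 1.92 in EZH2-/+, 1.01 in EZH2-/- and 1.16 with the transgene. Counting could not assign shared reads with certainty, but the SOX2-OT level was far below that of SOX2 in every group.

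The let-7 regulators did not pass the test. LIN28A ranged over all 12 libraries from 821 RPM in EZH2-/-+EZH2 library 2 to 1126 RPM in EZH2-/+ library 3, and its log2 change in EZH2-/- relative to EZH2+/+ ESCs was -0.14 ± 0.15 (SE, limma, adjusted p = 0.496). LIN28B was at 62.3, 60.3 and 42.1 RPM in EZH2+/+ and at 58.1, 53.5 and 31.9 RPM in EZH2-/- libraries (-0.22 ± 0.27, SE, limma, adjusted p = 0.56). SALL4, a zinc finger factor of the SALL family, was at 139, 124 and 94.6 RPM in EZH2+/+ and at 105, 99.2 and 73.2 RPM in EZH2-/- libraries (-0.36 ± 0.23, SE, limma, adjusted p = 0.258). For LIN28B and SALL4 library 3 was lowest in every genotype, and the spread between library numbers was wider than that between genotypes. When libraries were blocked by number, SALL4 passed the test (limma, adjusted p = 0.0167), in a fit that called 28% of genes lower, and LIN28B did not (0.081).

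**Figure D2:**
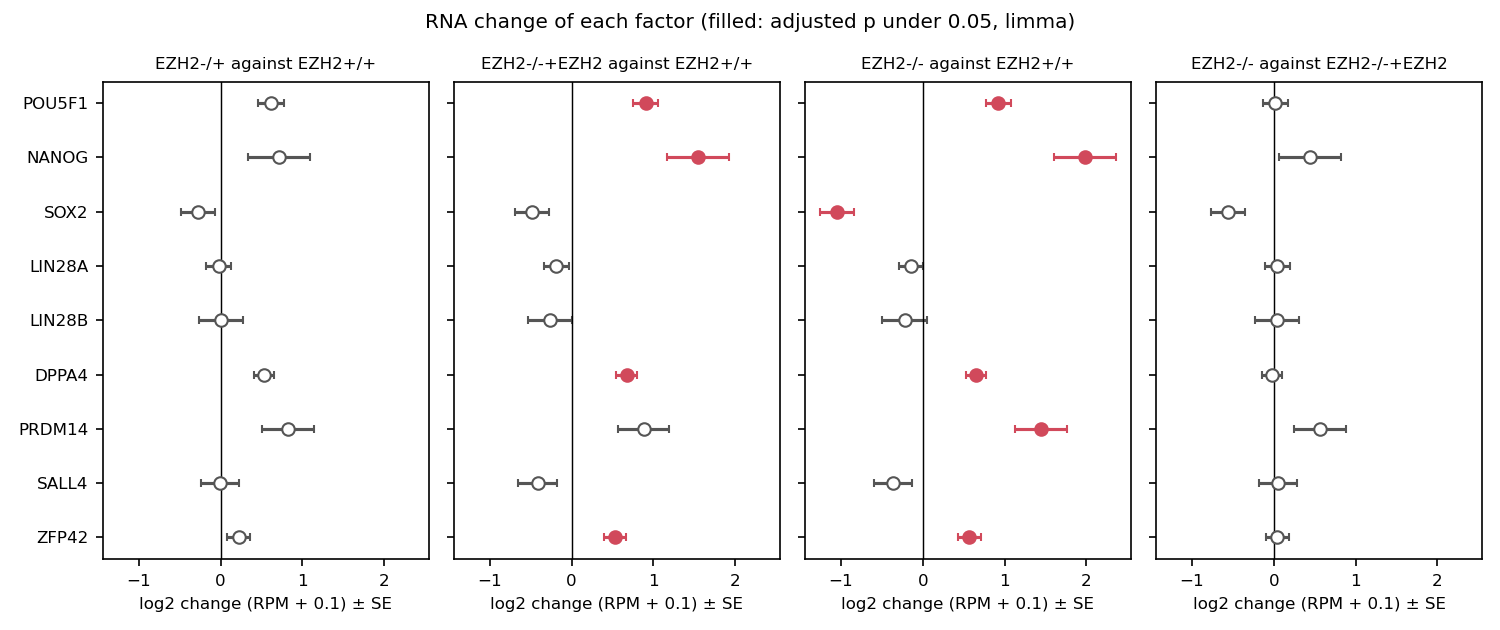
Log2 change of RPM + 0.1 (horizontal axis, ± SE from limma) of each factor in 4 comparisons, where filled points passed an adjusted p of 0.05. The widest change relative to EZH2+/+ ESCs is that of PRDM14 in EZH2-/+ ESCs and that of NANOG with both EZH2 alleles disrupted, whether or not the transgene was induced, and no point is filled for EZH2-/- against EZH2-/-+EZH2.

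Between EZH2-/- cells and those with the EZH2 transgene induced, SOX2 passed the test when libraries were blocked by number and no member did without the block. That is 0 of 9 members where 3.15% of genes tested passed, a share at which a count of 0 is nothing particular to them (limma, 3460 genes had an unadjusted p under 0.05, and voom on the recovered reads also called 0 members). The members' median change was 0.04, beside 0.02 over all genes. POU5F1 was at 1315, 1245 and 1237 RPM in EZH2-/-+EZH2 libraries, within the range of EZH2-/- libraries, and its log2 change was 0.02 ± 0.16 (SE, limma, adjusted p = 0.966). DPPA4, at 355, 359 and 328 RPM, and ZFP42, at 67.2, 55.8 and 57.9 RPM, overlapped with their EZH2-/- values as well.

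The widest differences in this comparison were those of SOX2, PRDM14 and NANOG. SOX2 was at 159, 140 and 182 RPM in EZH2-/-+EZH2 libraries, all above those of EZH2-/- ESCs, with a log2 change in EZH2-/- of -0.57 ± 0.21 (SE, limma, adjusted p = 0.18). When libraries were blocked by number, SOX2 passed (limma, adjusted p = 0.0251), in a fit that called 3.21% of genes lower. NANOG, at 76.3, 69.9 and 51.3 RPM, lay below its EZH2-/- libraries in every case (0.44 ± 0.38, SE, limma, adjusted p = 0.601). SOX2 and NANOG were the members without overlap here, 1 of 9 in each direction, where 9.7% of genes tested were lower and 13.5% higher in EZH2-/- ESCs without overlap. PRDM14 was at 104, 86.6 and 51.3 RPM, overlapping with EZH2-/- ESCs (0.57 ± 0.32, SE, limma, adjusted p = 0.401).

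EZH2-/-+EZH2 ESCs were also compared with EZH2+/+ ESCs. POU5F1, NANOG, DPPA4 and ZFP42 rose, 4 of 9 members where 3.4% of genes tested did, with log2 changes of 0.90, 1.55, 0.67 and 0.53 (limma, adjusted p = 0.00412, 0.0222, 0.00557 and 0.0284). NANOG and ZFP42 lost the call when single libraries were left out: NANOG without any 1 EZH2+/+ library and without EZH2-/-+EZH2 library 1 or 2 (adjusted p 0.0625 to 0.0837), and ZFP42 without EZH2+/+ library 1 or 2 or EZH2-/-+EZH2 library 1 or 2 (0.0612 to 0.130). PRDM14 had a log2 change of 0.88 ± 0.32 (SE, limma, adjusted p = 0.0997). Under the block PRDM14 passed (limma, adjusted p = 0.0125; 6.26% of genes higher), and SOX2 (-0.48, adjusted p = 0.0243) and SALL4 (-0.42, adjusted p = 0.0179) passed as lower, in a fit with 16.1% of genes lower. These values share their EZH2+/+ libraries with the comparison of EZH2-/- ESCs above.

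EZH2-/+ ESCs lay between the other groups for most members, with 0 of 9 called where 1.15% of genes were (limma, 2181 genes had an unadjusted p under 0.05, and voom also called 0 members). POU5F1 was at 1080, 1095 and 947 RPM, above every EZH2+/+ library, with a log2 change of 0.62 ± 0.16 (SE, limma, adjusted p = 0.0953). DPPA4 was at 306, 337 and 305 RPM, also above every EZH2+/+ library (0.53 ± 0.12, SE, limma, adjusted p = 0.0632). Of genes tested, 3.17% lay higher without overlap. Under the block both passed (limma, adjusted p = 0.0295 for POU5F1 and 0.0229 for DPPA4), where 0.718% of genes were higher.

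NANOG and PRDM14 were uneven among EZH2-/+ libraries. NANOG was at 46.4 and 66.0 RPM in libraries 1 and 2 and at 15.8 RPM in library 3, which is below all EZH2+/+ libraries. PRDM14 was at 107 and 85.0 RPM in libraries 1 and 2 and at 45.3 RPM in library 3, within the EZH2+/+ range. Without EZH2-/+ library 3, 4 members were called higher: NANOG (1.32, adjusted p = 0.00491), PRDM14 (1.18, 0.044), POU5F1 (0.69, 0.0474) and DPPA4 (0.56, 0.045; all limma). The same library was the lowest EZH2-/+ library in definitive endoderm markers and in summed human ESC markers (1731 RPM, against 2678 and 2740 RPM in libraries 1 and 2). EZH2+/+ libraries had 1716 to 2221 RPM of human ESC markers, a range that holds library 3 and lies below libraries 1 and 2. The part of these markers in the NANOG and PRDM14 values was not tested.

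The order of the genotypes for each member follows. POU5F1, NANOG, PRDM14 and ZFP42 were highest in EZH2-/-, then EZH2-/-+EZH2, EZH2-/+ and EZH2+/+ ESCs. DPPA4 had the same order with the 2 highest groups exchanged. SOX2 had the reverse order, highest in EZH2+/+ and lowest in EZH2-/- ESCs. LIN28A and SALL4 were highest in EZH2+/+, then EZH2-/+, EZH2-/- and EZH2-/-+EZH2 ESCs, and LIN28B had the same order with the first 2 groups exchanged. No neighbours in these orders passed the test (limma, adjusted p 0.0632 or higher), although the libraries of some did not overlap, as given above. Under the block the neighbours that passed were those given above and SALL4, lower in EZH2-/- than in EZH2-/+ ESCs (limma, adjusted p = 0.026), in a fit with 17% of genes lower.

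Of the 15499 genes that averaged 1 RPM or more, those most like each member over the 12 libraries were found by Pearson's r of log2 levels, which is a description because the libraries share genotypes and library numbers. POU5F1 was nearest to its copy POU5F1B (r = 0.955) and to SCGB3A2 (0.955), and DPPA4 to RP11-359M6.1 (0.935) and POU5F1 (0.934). NANOG was nearest to TIMP4 (0.985) and ME1 (0.982), PRDM14 to EPHA1 (0.983) and PRKCDBP (0.981), and ZFP42 to HERC6 (0.975) and CTAGE8 (0.970). SOX2 was nearest to AC010729.2 (0.972) and FAM66C (0.971), LIN28A to SCUBE2 (0.885) and SSC5D (0.864), LIN28B to PRPF4B (0.985) and SHPRH (0.983), and SALL4 to CAMSAP1 (0.971) and RP5-892K4.1 (0.969). Between members, r was 0.909 for POU5F1 and ZFP42, 0.868 for NANOG and PRDM14, 0.865 for LIN28B and SALL4 and -0.862 for NANOG and SOX2.

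Other pluripotency-associated genes moved in both directions. Of 30 such genes, 14 rose and 4 fell in EZH2-/- relative to EZH2+/+ ESCs (limma), where 12.6% of genes tested rose and 18.8% fell. Their median log2 change was 0.57. UTF1, a chromatin factor of ESCs, rose from 1.76 to 22.7 RPM, TDGF1, the NODAL co-receptor, from 67.0 to 291 RPM, GDF3, a TGF-beta ligand, from 7.77 to 65.3 RPM, and LEFTY2, a NODAL antagonist, from 16.1 to 595 RPM. ZIC2, a zinc finger factor, fell from 106 to 38.3 RPM, PODXL, a surface sialomucin, from 1212 to 683 RPM, and TERT, the telomerase catalytic subunit, from 9.12 to 6.02 RPM. Between EZH2-/- and EZH2-/-+EZH2 ESCs UTF1 alone passed, at 22.7 against 4.71 RPM (limma, adjusted p = 0.00349), where 3.15% of genes tested did. Under the block 3 rose and 3 fell, where 1276 and 661 of 20608 genes did. Of the 30 genes 2 rose in EZH2-/+ and 10 rose and 2 fell in EZH2-/-+EZH2 relative to EZH2+/+ ESCs. Of the 20608 genes tested 37 rose in EZH2-/+, and 701 rose and 1422 fell in EZH2-/-+EZH2 ESCs. Under the block the list had 7 higher and 1 lower in EZH2-/+, where 148 and 446 of all genes were. In EZH2-/-+EZH2 ESCs the block gave 16 higher and 5 lower, where 6.26% and 16.1% of genes were.

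Of 12 genes of the LIN28 and let-7 axis, 2 fell and 0 rose in EZH2-/- relative to EZH2+/+ ESCs (limma), with a median of -0.25. Over all genes tested 18.8% fell and 12.6% rose, so a count of 2 falls is nothing particular to this list. Under the block 5 fell and 0 rose, in a fit that called 28% of genes lower. HMGA2, a let-7 target that encodes an architectural chromatin protein, went from 108 to 62.8 RPM, and IGF2BP3, an RNA-binding protein, from 97.1 to 68.9 RPM. DGCR8, the microRNA processing cofactor, had the highest change at 0.33 and did not pass.

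Family relatives of the members moved in both directions. Of 17 relatives tested, 6 fell and 4 rose in EZH2-/- relative to EZH2+/+ ESCs (limma; median -0.22), where 18.8% of genes tested fell and 12.6% rose. SOX1, the SOX2 relative of neural progenitors, was at 7.41 RPM in EZH2+/+ but 0.606 in EZH2-/+, 0.0162 in EZH2-/- and 0.162 in transgene-induced cells. POU3F2, a neural POU factor, was at 7.70, 0.755, 0.379 and 0.170 RPM in the same order, and SALL1 at 94.6, 52.7, 42.1 and 44.0 RPM. DPPA2, the neighbour and partner of DPPA4, rose from 1.47 to 7.30 RPM, YY2 from 0.430 to 2.55 RPM and POU3F4 from 0.115 to 0.843 RPM. Between EZH2-/- and EZH2-/-+EZH2 ESCs POU3F4 alone passed (0.843 against 0.0223 RPM), where 3.15% of genes tested did. Under the block 3 rose and 1 fell, where 1276 and 661 of 20608 genes did.

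Markers of differentiated cells were measured beside the members. Of 10 definitive endoderm markers, 6 rose in EZH2-/- relative to EZH2+/+ ESCs and 3 relative to EZH2-/-+EZH2 ESCs (limma; 9 and 6 under the block), and their sum was 197 to 529 RPM in EZH2-/- against 30.5 to 69.0 RPM in EZH2+/+ libraries. Against EZH2+/+, GATA6 went from 2.53 to 29.2 RPM and HHEX from 1.19 to 3.68 RPM. CER1 had the highest change, from 11.6 to 170 RPM, beside a mean sum of 325 RPM in EZH2-/- ESCs. CXCR4 had the lowest, from 7.94 to 13.8 RPM, and did not pass in this comparison. Of 12 mesoderm and mesenchyme markers tested, 7 rose and 1 fell relative to EZH2+/+ and 5 rose relative to EZH2-/-+EZH2 ESCs (8 higher under the block). Against EZH2+/+, TWIST1 moved from 0.233 to 7.30 RPM and HAND1, the highest change, from 0.467 to 23.3 RPM. COL1A2 fell from 182 to 89.5 RPM, and COL1A1 went from 88.3 to 65.2 RPM, passing only under the block. Among all 20608 genes tested, 2593 rose and 3870 fell relative to EZH2+/+, and 542 rose relative to EZH2-/-+EZH2 ESCs. Under the block 3566 and 1276 rose.

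Of 7 neuroectoderm markers tested, SOX1, MAP2 and PAX6 fell and NES rose in EZH2-/- relative to EZH2+/+ ESCs (limma), where 18.8% of genes tested fell and 12.6% rose. MAP2 went from 62.6 to 3.04 RPM and PAX6 from 6.65 to 1.06 RPM, in the direction of SOX2, whereas the summed list, most of it NES, was 253 to 339 RPM in EZH2+/+ and 319 to 356 RPM in EZH2-/- libraries. SOX1, MAP2 and PAX6 also fell in EZH2-/-+EZH2 relative to EZH2+/+ ESCs, to 0.162, 8.52 and 0.418 RPM. Between EZH2-/- and EZH2-/-+EZH2 ESCs 0 of 7 passed, and under the block NES was higher and MAP2 lower in EZH2-/- ESCs. Of 7 trophectoderm and amnion markers tested 4 rose (TFAP2C, GABRP, GATA3 and ISL1), and the list summed to 37.3 to 42.7 RPM in EZH2-/- against 21.3 to 22.8 RPM in EZH2+/+ libraries. TFAP2C, at 23.7 RPM, and GABRP, at 8.24 RPM, were most of the mean sum of 40.7 RPM in EZH2-/- ESCs. With the transgene TFAP2C was at 18.2 and GABRP at 8.62 RPM. CDX2 went from 1.11 to 0.937 RPM and did not pass, and CGA was at 0 in all 12 libraries. Fibroblast markers summed to 501 to 667 RPM in EZH2-/- and 669 to 898 RPM in EZH2+/+ libraries, and most of the sum was VIM (mean 682 of 802 RPM in EZH2+/+). The feeders are mouse cells and reads were aligned to the human genome, and how far these values bear on feeders was not tested. Of 8 fibroblast markers tested, 3 rose (COL6A3, THY1 and LUM) and VIM fell, while DPT and FAP were at 0 in all 12 libraries. Of 10 human ESC markers, a list that holds no member, 4 rose and 2 fell. All of them but B3GALT5 and ST3GAL2 are also among the other pluripotency-associated genes above, so the lists are not separate. The part of these cells in the members' changes was not tested.

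Chromatin was compared in 5 kb windows centred on start sites, with the window of most H3K4me3 taken for each member. Values of the histone marks and input are the authors' mean of 2 libraries, in RPM, and those of EZH2 come from a single library, so no test was possible. Changes on log2(RPM + 0.1) were read against the 35683 gene names in the table. RPM describe how the reads of a library are distributed and not the total amount of a mark.

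PRDM14 was the member with the most H3K27me3 in EZH2+/+ ESCs. Its window on chromosome 8 (70068827 to 70073827, GRCh38) held 7.11 RPM of H3K27me3 in EZH2+/+ ESCs but 3.15 in EZH2-/+, 1.41 in EZH2-/- and 2.49 with the transgene, with an input of 0.975 to 1.38 RPM. The ratio to input was 6.63 in EZH2+/+ ESCs, against a median of 1.26 over all gene names, and 87.0% of gene names had less H3K27me3. The EZH2-/- value was 1.45 times input, against a median of 0.600 over all gene names in EZH2-/- ESCs, where 79.7% of gene names had less H3K27me3. EZH2 ChIP-seq in EZH2+/+ ESCs gave 1.11 RPM there, the highest of the members and above 92.2% of gene names. That was 1.03 times the 1.07 RPM of input, where the median over all gene names was 0.322 RPM, 0.217 times input. The other members were between 0.343 RPM at NANOG (above 51.8% of gene names) and 0.891 RPM at LIN28A (88.2%). SOX2 (87.4%), DPPA4 (85.7%), SALL4 (84.8%) and LIN28B (81.0%) ranked near LIN28A, so a high rank was not particular to PRDM14. The study made EZH2 ChIP from crosslinked chromatin and histone ChIP from native chromatin. The title of the EZH2 ChIP sample names EZH2, whereas its antibody label reads None, so what was precipitated rests on the title. The other window of PRDM14 overlaps this one and gave 7.24 and 1.23 RPM of H3K27me3 in EZH2+/+ and EZH2-/- ESCs.

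At the remaining members H3K27me3 in EZH2+/+ ESCs was between 0.269 RPM at LIN28B and 2.94 RPM at POU5F1, which had 2.07 times its input and 1.58 RPM in EZH2-/- ESCs. NANOG, SOX2, LIN28A, SALL4 and ZFP42 were at 0.981 to 1.42 RPM, 0.684 to 1.17 times their input. On the log2 scale 1 of 9 members fell by 1 or more in EZH2-/- relative to EZH2+/+ ESCs, PRDM14 by 2.26, where 45.2% of gene names did. In RPM, DPPA4 (2.01) and LIN28B (1.28) were higher by 1 or more, where 3.85% of gene names were. DPPA4 went from 0.499 to 2.31 RPM, or about 4.55 to 32.0 reads per library. LIN28B went from 0.269 to 0.792 RPM, or 2.45 to 11.0 reads. On log2(RPM + 1) DPPA4 was higher by 1.14 and LIN28B by 0.50. The paper reports H3K27me3 at background levels in EZH2-/- ESCs. In these cells the median gene name had 0.600 times input and DPPA4 had 1.91 times input. RPM are shares of a library's reads, and whether these windows gained the mark was not tested. The members' median change was 0.27, that of all gene names -0.85 and that of the names with at least 8 RPM of H3K4me3 -1.21. DPPA4 in EZH2-/-+EZH2 ESCs was at 1.98 RPM, nearer to EZH2-/- than to EZH2+/+ ESCs.

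**Figure D3:**
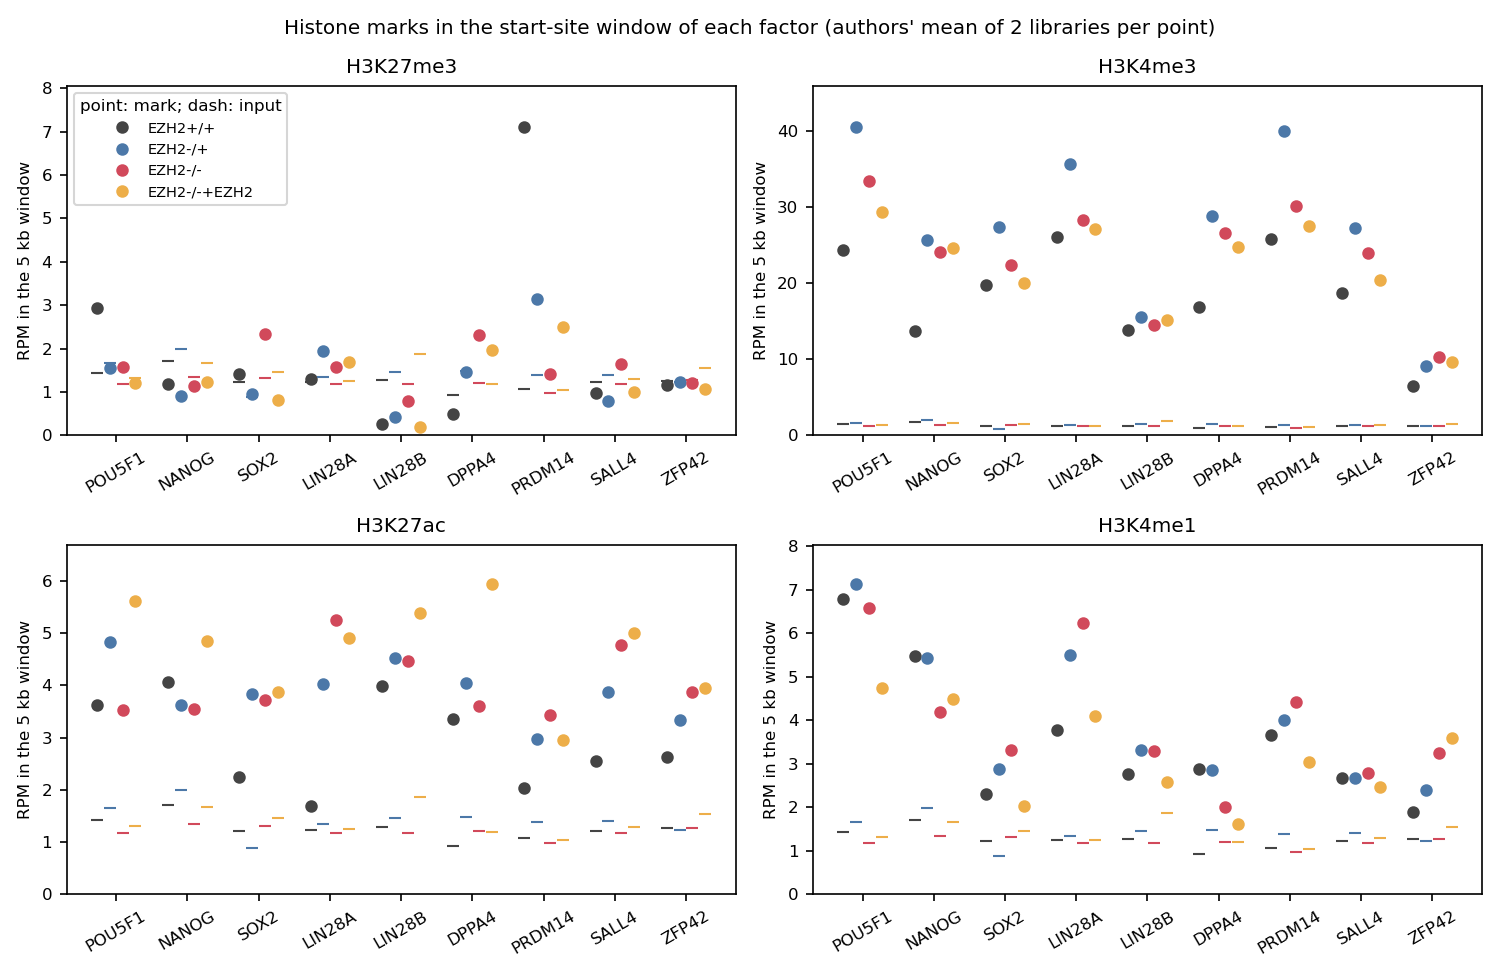
RPM of H3K27me3, H3K4me3, H3K27ac and H3K4me1 (vertical axes, linear, from 0) in the start-site window of each factor, by genotype, where points are the mark and dashes the input, each a mean of 2 libraries without error. PRDM14 in EZH2+/+ ESCs stands above all other H3K27me3 points at 7.11 RPM, and H3K4me3 is far above input at every factor.

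H3K4me3 was present at every member. In EZH2+/+ ESCs it was between 6.42 RPM at ZFP42 and 26.1 RPM at LIN28A, from 5.09 to 24.1 times input, with PRDM14 at 25.8 RPM beside its H3K27me3. It was higher in EZH2-/- than in EZH2+/+ ESCs at all 9 members, as at 43.4% of gene names, and a rise of 1 log2 unit was reached at 0 of 9, where 2.63% of gene names rose and 11.1% fell that far. NANOG had the widest difference, with 13.8 RPM in EZH2+/+ ESCs against 25.7 in EZH2-/+, 24.0 in EZH2-/- and 24.6 with the transgene (log2 change in EZH2-/- of 0.80). The median change from EZH2+/+ to EZH2-/- ESCs was 0.35 over the members and 0.18 over the 15540 gene names with at least 8 RPM of H3K4me3. All 9 members were also higher than in EZH2+/+ ESCs in EZH2-/+ ESCs, as at 55.8% of gene names, and in EZH2-/-+EZH2 ESCs, as at 40.3%. Relative to EZH2-/-+EZH2 ESCs, H3K4me3 was higher in EZH2-/- ESCs at 7 of 9 members, as at 59.1% of gene names. The median change there was 0.10 over the members and 0.10 over the same 15540 names. The EZH2+/+ H3K4me3 libraries were the shallowest, at about 3426083 reads per library (10327471 to 17385575 in the other genotypes), and the part of this in the differences was not tested.

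H3K27ac differed most at LIN28A, whose RNA did not pass the test. It was at 1.69 RPM in EZH2+/+ ESCs against 4.02 in EZH2-/+, 5.24 in EZH2-/- and 4.90 with the transgene, and the log2 change of 1.58 in EZH2-/- was the only one of 1 or more among the members, where 9.5% of gene names rose and 2.93% fell that far. SALL4 went from 2.55 to 4.78 RPM (0.88), PRDM14 from 2.04 to 3.44 RPM (0.72) and SOX2, whose RNA fell, from 2.24 to 3.73 RPM (0.71). NANOG and POU5F1, whose RNA rose, had 4.06 and 3.62 RPM in EZH2+/+ and 3.56 and 3.54 RPM in EZH2-/- ESCs. The median change was 0.55 over the members, 0.34 over all gene names and 0.57 over the 15540 names with at least 8 RPM of H3K4me3. H3K4me1 changed by less than 1 on the log2 scale at all 9 members, where 2.37% of gene names rose and 3.66% fell by 1 or more, and was highest at POU5F1, from 4.75 to 7.12 RPM over the genotypes. DPPA4 had less H3K4me1 in EZH2-/- (2.00 RPM) than in EZH2+/+ ESCs (2.88 RPM), and ZFP42 more (3.25 against 1.88 RPM).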

How the data were processed

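SSEA4-sorted H9 ESCs of 4 genotypes were profiled by RNA-seq (12 libraries) and by ChIP-seq for 4 histone marks, input and, in EZH2+/+ cells, EZH2. The submitters' processing notes name Trim Galore 0.4.0, TopHat2 2.0.12 and Bowtie2 2.2.5; reads were aligned to GRCh38. The authors counted RNA reads per gene without strand in SeqMonk and counted ChIP reads without duplicates within 2.5 kb of each start site. The authors deposited log2 RPM values for both. A gene without a read had been set to 0.9 of 1 read and was returned to 0. Below 1000 reads, 100% of RNA values were whole reads (tolerance 0.02). The value steps show that a histone or input column averages 2 libraries (in log2), whereas the paper describes more replicates; no column was left unmatched.

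Values were returned to RPM. Changes were tested on log2(RPM + 0.1), which understates the change of low genes, for the 20608 of 35805 genes averaging 0.1 RPM or more, with limma 3.58.1 (lmFit, eBayes with trend, R 4.3.3), in 1 fit of all 12 libraries over 4 genotypes. Adjusted p-values are Benjamini-Hochberg over all genes tested, and p under 0.05 was called. The fits were tested on simulated data. The authors tested raw counts with another tool, and the main test here follows the log2 unit of the deposited table.

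The pairing of library numbers was checked by correlating deviations from the genotype means. All 18 pairs with the same number in different genotypes were above 0.1 (mean 0.332, lowest 0.107), and the mean of the 36 pairs with different numbers was -0.159. The labels give no basis for the pairing, which comes from these correlations.

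The members were chosen by name, and the members, gene lists and tests were chosen with earlier results of these data known. The text names all members, their copies and the 2 genes most like each member. From the lists other than cell type markers it names up to 3 genes with the smallest adjusted p per direction, and the extremes. From the cell type marker lists it names selected genes. Where a name recurs, the row with the highest mean RPM was used.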

Additional observations from a re-analysis of the deposited data

How the results depend on the processing

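The 6 members called between EZH2-/- and EZH2+/+ ESCs were called in the same direction under every alternative run, leaving out any of their libraries included. Of 432 single values of the members under an alternative, 408 kept their side of the threshold, 9 lost a call, 15 gained one and 0 called values changed sign; 26 values that were not called changed sign. With the replicate block, which pairs libraries by number, members called were 1 for EZH2-/- against EZH2-/-+EZH2, 2 for EZH2-/+ against EZH2+/+ and 7 for EZH2-/-+EZH2 against EZH2+/+ ESCs, and all genes called were 1937, 594 and 4611; apart from SALL4 in EZH2-/- against EZH2+/+, it changed no other call of a member in the 4 comparisons. Median-ratio rescaling called 2 members in EZH2-/+ ESCs, and turned the split of all calls for EZH2-/-+EZH2 against EZH2+/+ from 701 higher and 1422 lower to 1030 higher and 877 lower. A mean of at least 1 RPM gave 288 calls for EZH2-/- against EZH2-/-+EZH2, over fewer genes, and voom on recovered reads, an alternative chosen after seeing the data, gave 274.

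Leaving out 1 library at a time gave 0 to 4 members in EZH2-/+, 2 to 5 in EZH2-/-+EZH2 and 6 in EZH2-/- ESCs against EZH2+/+, and 0 for EZH2-/- against EZH2-/-+EZH2. All genes called ranged from 65 to 602, 891 to 2059, 4139 to 5501 and 137 to 781 in the same order, the lowest for the last without EZH2-/- library 2. Where members were lost or gained, the cause was not tested.

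Centring the H3K27me3 change on its median put 6 members past 2-fold, with SOX2, LIN28A, LIN28B, DPPA4 and SALL4 higher and PRDM14 lower, by the construction of that alternative. The window of most H3K27me3 in EZH2+/+ ESCs put 2 members past 2-fold in H3K27ac, LIN28A and SALL4 (1.04); it also took DPPA4 under 2-fold in H3K27me3 and put NANOG past it (-1.03). The planned count fits with edgeR and DESeq2 were left out, and voom was run on the recovered reads in their place. ChIP-seq values have no replicate error, and H3K27me3 at members other than PRDM14 rests on few reads.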
